A study of Mus musculus with 6 samples.

Results

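The cyclins, cyclin-dependent kinases and inhibitors that govern passage through the G1 phase of the cell cycle were followed here as a set of 10 genes, chosen by name: the D-type cyclins Ccnd1, Ccnd2 and Ccnd3, their kinases Cdk4 and Cdk6, the E-type cyclins Ccne1 and Ccne2 with their kinase Cdk2, and the inhibitors Cdkn1b (p27) and Cdkn2c (p18). All 10 were among the 56748 genes of the deposited table, and all 10 had enough reads to be tested. The measure was ribosome profiling, which sequences the short stretches of mRNA shielded by ribosomes from a nuclease, in Lin-c-Kit+ mouse cells collected on day 12 after a dose of 4.5 Gy. The wild-type (WT) and the Mov10 knockout (KO) genotype had 3 libraries each, and both genotypes had been irradiated, so that no unirradiated cells stand beside them. The product of Mov10 is a helicase that acts on RNA. The labels give no strain, sex or age, do not say how Mov10 was inactivated, and do not say whether the replicates were separate animals, so that p-values measure the spread between these libraries, which may be technical.

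In the G1 phase, growth signals raise D-type cyclins, which bind Cdk4 or Cdk6 and start the phosphorylation of the retinoblastoma protein. Phosphorylated retinoblastoma protein releases E2F factors, which switch on E-type cyclins and the genes of DNA replication, and cyclin E with Cdk2 completes the step. Cdkn2c belongs to the INK4 inhibitors, which bind Cdk4 and Cdk6, while Cdkn1b belongs to the Cip/Kip inhibitors, which act on cyclin E and Cdk2. In human blood stem cells the level of Cdk6 is known to set how readily they leave quiescence.

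Of the 10 genes, 2 rose in the knockout, Cdk4 and Ccnd3, and 1 fell, Cdk6. The other 7 did not pass the threshold of an adjusted p under 0.05 (limma, Benjamini-Hochberg over 17114 genes). Across all genes tested 21.2% were called, 10.3% higher and 10.9% lower, so that 3 calls in 10 genes, or 30%, lay near the share among all genes. Among the 7760 genes with a mean of 30 to 1200 normalized reads, a range that holds all 10 members and was chosen after their values were seen, 30.7% were called. The median log2 fold change of the 10 genes was -0.04, and that of all genes tested was -0.17.

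The promoters of the kinases and of the cyclin whose footprints changed are shown because they are the regulatory sequences of the 3 genes the results turn on. RefSeq promoters, running from 250 bases before to 50 bases after a start site, were found for 7 of the 10 genes, in the build GRCm38.p6, which differs from the build of the gene positions given further on. Capitals mark CACGTG, the core of the E-box, a sequence known to be bound by basic helix-loop-helix proteins such as Myc, and a palindrome that reads alike on both strands. The windows are chr10:127063285-127063584 (+) for Cdk4, chr5:3343643-3343942 (+) for Cdk6, and chr17:47504801-47505100 (+) and chr17:47593217-47593516 (+) for the start sites of Ccnd3, all written 5′ to 3′.
Cdk4: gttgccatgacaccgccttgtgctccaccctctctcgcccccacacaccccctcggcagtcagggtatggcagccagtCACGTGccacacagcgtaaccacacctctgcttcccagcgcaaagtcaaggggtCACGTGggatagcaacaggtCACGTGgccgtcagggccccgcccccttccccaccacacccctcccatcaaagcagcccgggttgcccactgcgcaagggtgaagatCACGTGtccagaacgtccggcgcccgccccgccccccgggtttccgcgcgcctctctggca
Cdk6: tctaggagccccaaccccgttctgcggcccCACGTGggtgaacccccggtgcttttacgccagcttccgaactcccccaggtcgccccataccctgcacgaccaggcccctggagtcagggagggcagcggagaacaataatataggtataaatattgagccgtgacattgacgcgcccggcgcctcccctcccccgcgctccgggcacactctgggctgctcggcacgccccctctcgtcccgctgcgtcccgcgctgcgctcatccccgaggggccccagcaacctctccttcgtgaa
Ccnd3, upstream start: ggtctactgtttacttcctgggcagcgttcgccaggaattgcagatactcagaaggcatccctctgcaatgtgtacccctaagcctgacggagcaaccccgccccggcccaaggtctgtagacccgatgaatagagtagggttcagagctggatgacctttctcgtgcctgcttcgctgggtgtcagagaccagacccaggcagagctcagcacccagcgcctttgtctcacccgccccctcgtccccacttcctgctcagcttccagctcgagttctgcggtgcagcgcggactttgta
Ccnd3, downstream start: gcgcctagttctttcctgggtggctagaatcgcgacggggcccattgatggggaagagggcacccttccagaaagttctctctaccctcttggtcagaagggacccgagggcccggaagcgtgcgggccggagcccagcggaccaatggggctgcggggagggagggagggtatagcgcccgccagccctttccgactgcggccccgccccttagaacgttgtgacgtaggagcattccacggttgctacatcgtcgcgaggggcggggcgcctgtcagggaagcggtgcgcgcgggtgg

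The Cdk4 promoter held 4 matches to CACGTG, the Cdk6 promoter held 1 and neither Ccnd3 window held any. Of the 9 windows of the members 3 held a match, the other one being 1 of the windows of Cdkn2c, which was not called. Among all 32851 mouse promoters of that length 7.15% held at least 1 match, and 8 promoters held 4 or more. The GC box GGGCGG, searched on both strands, was found 3 times in the Cdk4 window, 2 times in each Ccnd3 window and not in the Cdk6 window. Among the members not called it was found 6 times in the Cdk2 window, 4 times in that of Ccne1 and 1 time in that of Cdkn1b. One window of Cdkn2c held it 4 times and the other did not hold it. At least 1 match was present in 35.7% of all promoters, and 4 or more in 5.49%. An E2F motif, spelled TTTCCCGC, TTTGGCGC, TTTCGCGC or TTTGCCGC on both strands, was present in 2.26% of all promoters, and among the 9 windows of the members it was found only in that of Cdk2, 1 time. The motifs CCAAT and AGATAA were searched as well. CCAAT, present in 37.4% of all promoters, was found in the downstream Ccnd3 window but not in that of Cdk4 or Cdk6. Among the members not called it was found in windows of Cdk2, Cdkn1b and Cdkn2c. AGATAA, present in 11.2% of all promoters, was found in none of the 9 windows. All of these are matches of letters and no measure of binding.

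Levels are given as normalized reads, the reads of a gene after the authors' division of each library by its own size factor, and folds are ratios of the group means. Cdk4 (chromosome 10, 126899403 to 126903789, plus strand, GRCm39) encodes a kinase that binds D-type cyclins. Its level was 692, 668 and 658 in the WT libraries and 1548, 1449 and 1916 in the knockout libraries 1 to 3. All knockout libraries lay above all WT libraries, and KO replicate 3 was the highest. The means were 672 ± 17.8 in WT and 1638 ± 246 in the knockout (SD, n = 3 each), a 2.44-fold rise with a log2 fold change of 1.27 (SE 0.11, limma adjusted p = 0.000114).

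Cdk6 (chromosome 5, 3391485 to 3581008, plus strand) encodes the other kinase of the D-type cyclins. It had 1198, 1237 and 1228 normalized reads in WT against 602, 631 and 550 in the knockout. The knockout libraries lay close to each other and far below the WT libraries. The means were 1221 ± 20.3 and 594 ± 41.0, so that Cdk6 fell 2.05-fold (log2 fold change -1.04, SE 0.079, limma adjusted p = 7.33e-05). The interval of the log2 difference ran from -1.22 to -0.86 at 95%, and that of Cdk4 from 1.03 to 1.51.

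**Figure D1:**
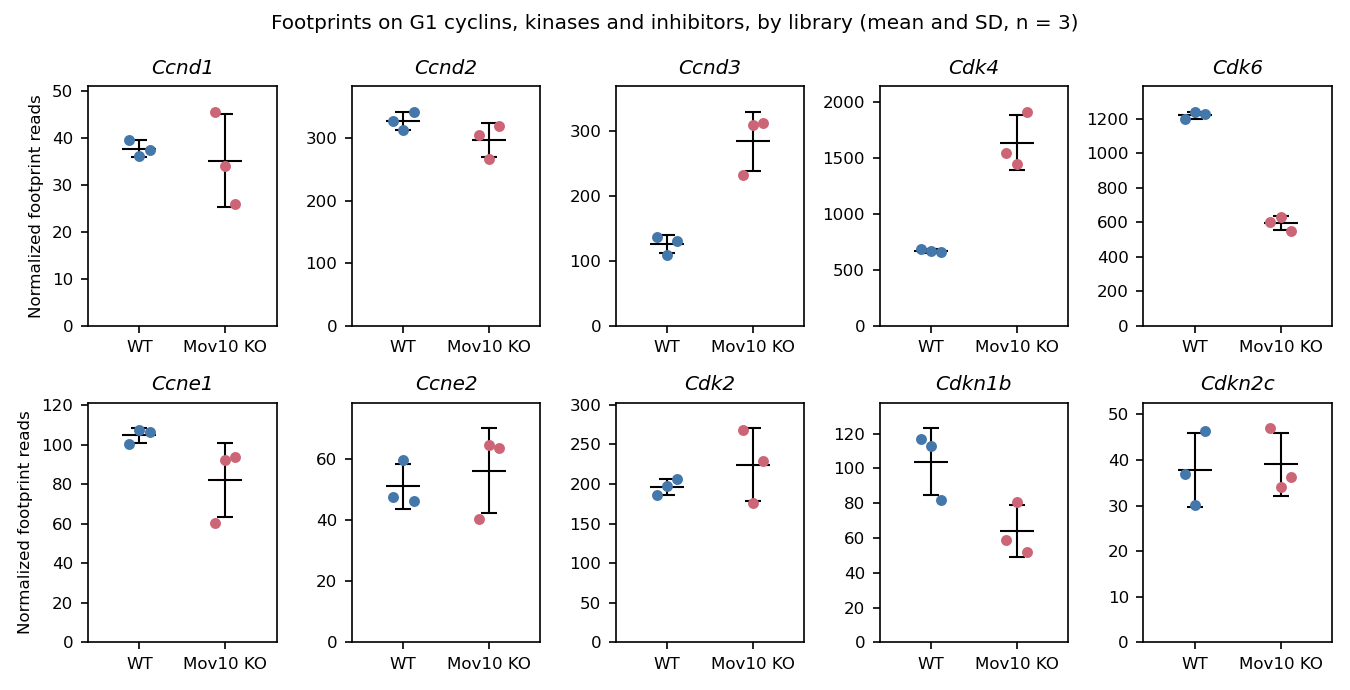
Normalized footprint reads of each of the 10 genes (vertical axis, starting at 0 and scaled per gene) in the 3 WT and 3 Mov10 KO libraries, with points for libraries and a bar with whiskers for the mean and SD. Cdk4 lies between 1449 and 1916 in the knockout against 658 to 692 in WT, Cdk6 lies between 550 and 631 against 1198 to 1237, and the groups of Ccnd1, Ccnd2, Ccne2, Cdk2 and Cdkn2c overlap.

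The kinases moved in opposite directions, and the ratio of their reads within a library, which does not depend on how libraries were scaled, differed between the genotypes. In WT there were 0.578, 0.540 and 0.536 reads on Cdk4 per read on Cdk6, and in the knockout 2.57, 2.30 and 3.48. Cdk6 made up 64.5% ± 0.958 of the reads on both kinases in WT and 26.9% ± 4.13 in the knockout. The exact two-sided permutation p was 0.1, which is the smallest that 3 against 3 libraries allow. The Wilson 95% intervals of single libraries ran from 61.6% to 66.9% in WT and from 20.4% to 32.9% in the knockout. They cover counting error only. The intervals of KO replicates 1 and 2 overlapped, while that of KO replicate 3 lay below both. Per length the ratio of Cdk4 to Cdk6 was 2.49, 2.32 and 2.31 in WT against 11.1, 9.89 and 15.0 in the knockout (exact permutation p = 0.1), so that on this scale Cdk4 stood above Cdk6 in both genotypes.

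The sum of both kinases moved less than either kinase. It was 1890, 1904 and 1885 normalized reads in WT against 2150, 2080 and 2466 in the knockout, with means of 1893 ± 9.85 and 2232 ± 206 (exact permutation p = 0.1). Together the kinases held 65.8% ± 0.511 of the reads on the 10 genes in WT and 67.3% ± 1.13 in the knockout, where the groups overlapped (exact permutation p = 0.2).

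**Figure D2:**
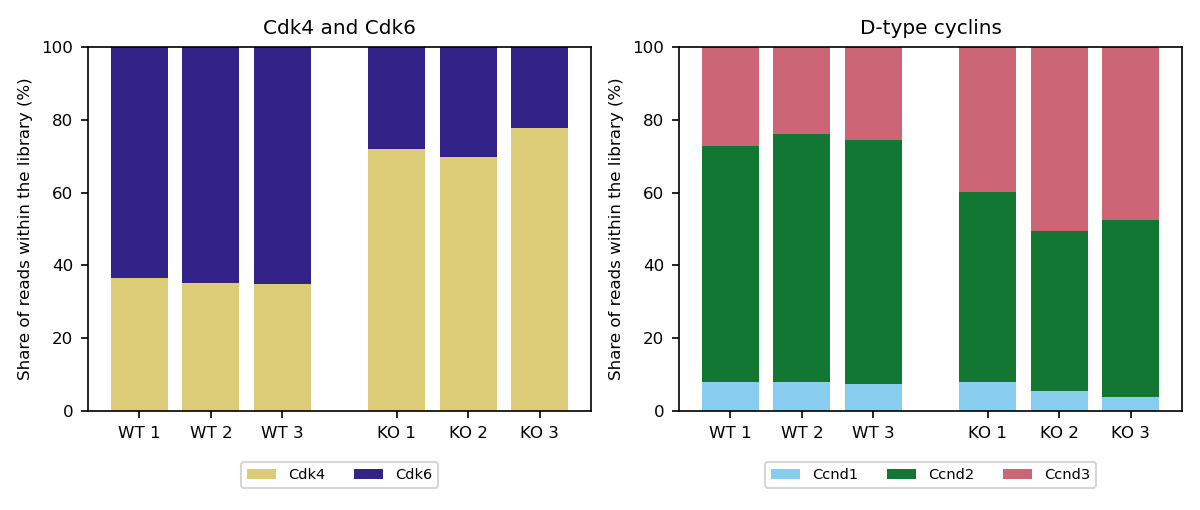
Share of reads in percent, per library, of Cdk4 and Cdk6 among the reads on both (left) and of the D-type cyclins among the reads on all D-type cyclins (right). Cdk6 holds 64.5% on average in WT and 26.9% in the knockout, and Ccnd3 holds 25.6% in WT and 46.0% in the knockout.

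The D-type cyclins differed among themselves. Ccnd3 (chromosome 17, 47815976 to 47910616, plus strand) had 138, 110 and 131 normalized reads in WT against 232, 309 and 313 in the knockout. The groups did not overlap, and KO replicate 1 was the lowest of the knockout libraries. Ccnd3 rose 2.26-fold, from 126 ± 14.5 to 284 ± 45.5 (log2 fold change 1.16, SE 0.17, limma adjusted p = 0.00241).

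Ccnd2 (chromosome 6, 127102125 to 127129156, minus strand), a D-type cyclin known to respond to cytokines in blood cells, had 327, 312 and 342 normalized reads in WT against 304, 267 and 320 in the knockout. The groups overlapped. Ccnd2 had a log2 fold change of -0.14 (SE 0.12, limma adjusted p = 0.426), with a 95% interval from -0.40 to 0.12, which holds neither a change of the size of Ccnd3 nor one of the size of Cdk6.

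Ccnd1 (chromosome 7, 144483668 to 144493662, minus strand) was the D-type cyclin with the fewest reads, 55 to 61 in a WT library and 18 to 34 in a knockout library. Its normalized level was 39.6, 36.2 and 37.5 in WT and 45.6, 34.0 and 26.0 in the knockout. The knockout libraries lay on both sides of the WT libraries. The log2 fold change was -0.13 with a 95% interval from -0.87 to 0.61 (limma adjusted p = 0.805), which on the linear scale is 0.546 to 1.52 times the WT level.

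Among the reads on D-type cyclins within a library, the share of Ccnd3 was higher in the knockout and that of Ccnd2 lower, while the level of Ccnd2 itself was not called. Ccnd3 held 27.3%, 24.0% and 25.6% of D-type cyclin reads in WT and 39.9%, 50.7% and 47.5% in the knockout, with Wilson 95% intervals of single libraries from 21.0% to 30.6% and from 35.4% to 55.7%. Ccnd2 held 66.7% ± 1.69 in WT and 48.2% ± 4.28 in the knockout. Both shares were separated between the groups with the smallest possible exact permutation p of 0.1. Ccnd1 held 7.70% ± 0.310 in WT against 5.79% ± 1.95 in the knockout (exact permutation p = 0.2). This difference of -1.91 percentage points was -2.94 without KO replicate 1 and -0.999 without KO replicate 3. Summed D-type cyclins came to 491 ± 28.3 normalized reads in WT against 617 ± 38.7 in the knockout (exact permutation p = 0.1).

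**Figure D3:**
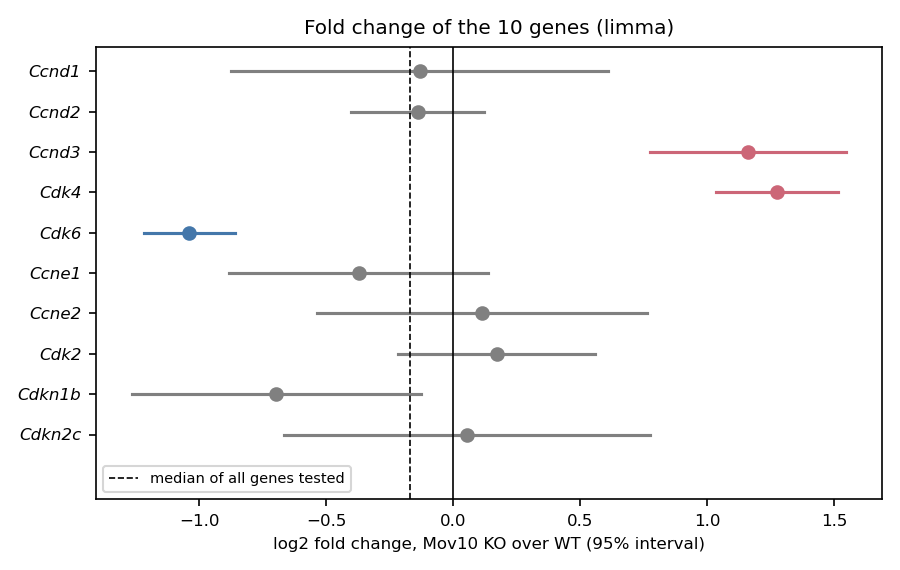
The log2 fold change of each gene, Mov10 KO over WT, from the limma fit, with 95% intervals, coloured where the gene was called higher (red) or lower (blue). Cdk4 at 1.27 and Ccnd3 at 1.16 lie to the right, Cdk6 at -1.04 to the left, and the dashed line marks the median of all genes tested at -0.17.

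The E-type cyclins and their kinase did not pass the threshold. Ccne1 (chromosome 7, 37797409 to 37806959, minus strand) had 101, 107 and 106 normalized reads in WT against 60.3, 92.2 and 94.1 in the knockout. Every knockout library was below every WT library, though KO replicates 2 and 3, unlike KO replicate 1, lay close to WT. Its log2 fold change was -0.37 (SE 0.22, limma adjusted p = 0.276).

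Ccne2 (chromosome 4, 11191351 to 11204779, plus strand) had 47.4, 59.5 and 46.3 normalized reads in WT against 40.2, 64.7 and 63.7 in the knockout, and the groups overlapped (log2 fold change 0.11, 95% interval -0.54 to 0.76, limma adjusted p = 0.814). Of the reads on both E-type cyclins, Ccne2 held 32.7% ± 2.71 in WT and 40.5% ± 0.635 in the knockout, with no overlap between the groups (exact permutation p = 0.1). Single libraries held 75 to 272 reads on the E-type cyclins, and the Wilson 95% interval of the knockout library with the fewest, 29.7% to 51.3%, holds the WT mean.

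Cdk2 (chromosome 10, 128533808 to 128540900, minus strand) had 186, 197 and 206 normalized reads in WT against 268, 176 and 229 in the knockout. The knockout libraries lay on both sides of WT. Cdk2 had a log2 fold change of 0.17 with a 95% interval from -0.22 to 0.56 (limma adjusted p = 0.523).

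Of the inhibitors, Cdkn1b (chromosome 6, 134897364 to 134902476, plus strand) was the closer to a call. It had 117, 113 and 81.8 normalized reads in WT against 59.0, 80.9 and 52.1 in the knockout. The groups were separated by less than 1 normalized read, between WT replicate 3 and KO replicate 2. The means were 104 ± 19.2 and 64.0 ± 15.0, with a log2 fold change of -0.70 (SE 0.25), and the limma adjusted p of 0.0824 missed the threshold. Without KO replicate 2 it was 0.0324, and over 19 alternatives it ran from 0.0301 to 0.291.

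Cdkn2c (chromosome 4, 109518073 to 109524386, minus strand) had 37.0, 30.1 and 46.3 normalized reads in WT against 46.9, 34.0 and 36.2 in the knockout, and the groups overlapped, with KO replicate 1 just above the highest WT library (log2 fold change 0.05, 95% interval -0.67 to 0.77, limma adjusted p = 0.925). Cdkn2c held 27.1% ± 8.01 of the reads on both inhibitors in WT against 38.3% ± 7.72 in the knockout (exact permutation p = 0.2). Summed reads on both inhibitors per read on the 5 cyclins were 0.236, 0.229 and 0.193 in WT and 0.155, 0.150 and 0.108 in the knockout. That ratio was lower in all knockout libraries (0.219 ± 0.0229 against 0.138 ± 0.0257, exact permutation p = 0.1).

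Counted by overlap alone, 2 of the 10 genes had all knockout libraries above WT and 3 had all below, Cdk6, Ccne1 and Cdkn1b. Groups that do not overlap were found in 39.8% of all genes tested, 16.9% with the knockout higher and 22.9% with it lower, which is again near the share among the members. In the authors' deposited table the adjusted p was 3.09e-29 for Cdk4, 9.02e-25 for Cdk6 and 2.37e-07 for Ccnd3. For the other 7 genes it was 0.0930 or more. The authors' test is not stated, and it calls 3305 of the 28131 genes with reads, or 11.7%. An edgeR test of the recovered reads calls 3213 of the 10891 genes it tested, or 29.5%, so the shares have unlike denominators. The edgeR adjusted p was 6.66e-06 for Cdk4, 1.01e-05 for Cdk6 and 0.000450 for Ccnd3, and no other member was called. DESeq2 on the recovered reads gave an adjusted p of 3.18e-29 for Cdk4, 8.83e-25 for Cdk6 and 2.70e-07 for Ccnd3. These lie close to the authors' values, so the authors' test and DESeq2 are not separate evidence.

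Per length, the order of the genes changed between the groups. In normalized reads per 1000 bases of the gene length in the table, Cdk4 stood first in WT at 207 ± 5.46, followed by Cdk6 at 87.3 ± 1.45 and Ccne1 at 39.4 ± 1.36. Ccnd2 at 34.8 ± 1.58, Cdk2 at 31.6 ± 1.62 and Cdkn1b at 22.8 ± 4.22 came next. Ccne2, Ccnd3 and Cdkn2c, at 14.6 ± 2.10, 14.4 ± 1.65 and 14.1 ± 3.04, overlapped each other, and Ccnd1 was last at 8.02 ± 0.364. In the knockout Cdk4 was first at 504 ± 75.7 and Ccnd1 last at 7.48 ± 2.09. The genes from the second to the sixth place, Cdk6, Cdk2, Ccnd3, Ccnd2 and Ccne1, held 42.5 ± 2.93 to 30.9 ± 7.12 and each overlapped its neighbour in that order. Footprints lie mostly on coding sequence, while the table's lengths need not, so a gene with long untranslated stretches has a lower value on this scale.

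The libraries differ in depth and spread with genotype. WT libraries held 2260348 to 2499634 reads and knockout libraries 1118345 to 1352517, and single members had 18 to 2015 reads. Over the genes tested, Spearman correlations were 0.978 to 0.979 between WT libraries and 0.867 to 0.869 between knockout libraries. Between the genotypes they were 0.858 to 0.866, so knockout libraries were hardly closer to each other than to WT libraries. The coefficient of variation among knockout libraries was the larger in 9 of the 10 genes, with a median of 19.2% against 4.83% in WT. Over genes with at least 20 reads in a pair of libraries, the squared difference between WT libraries was 1.57 to 2.38 times what counting noise gives, and between knockout libraries 6.35 to 7.24 times. Over the 3 libraries of a group, the variance of Cdk4 was 0.711 times counting noise in WT against 24.8 times in the knockout, and for Cdk6 it was 0.529 and 1.88 times. For Cdkn1b and Cdkn2c this multiple was larger in WT, at 5.31 against 2.30 and 2.73 against 0.860. In the other members it was larger in the knockout. When reads were thinned to equal depth, Cdk4 and Ccnd3 were still called higher and Cdk6 lower.

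Mov10 itself had 107 ± 3.13 normalized reads in WT against 62.1 ± 23.4 in the knockout (log2 fold change -0.84, limma adjusted p = 0.0598), with 89.0 in KO replicate 2 against 51.0 and 46.3 in the others, and an adjusted p of 0.00692 without that library (0.00692 to 0.205 over 19 alternatives). Where on Mov10 these reads lie is not shown by the table. The number of genes called was 3628, and 1449, 1284 and 1239 without WT replicates 1, 2 and 3. Of these calls 48.4% were higher, a share that library totals moved to 30.8% and upper-quartile scaling to 62.9%, while the median log2 fold change of all genes moved from -0.17 to -0.39 and 0.01. The directions of Cdk4, Ccnd3 and Cdk6 were the same under each.

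The labels call the cells hematopoietic stem cells. Kit, the marker of the gate, had 1099 normalized reads in WT against 1122 in the knockout. The stem cell markers Procr, Mecom and Hlf had 1.30, 9.74 and 27.1 in WT and 0.929, 4.75 and 22.8 in the knockout. A floor of 3 reads is 1.84 to 2.04 normalized reads in a WT library and 4.02 to 4.85 in a knockout library. The means of Procr lay below it, and the knockout mean of Mecom lay near it. Of 10 stem and progenitor markers 1 was called higher and none lower, with a summed level of 1979 to 2062 in WT and 2065 to 2271 in the knockout. The counts of marker calls stand beside 10.3% of all genes called higher and 10.9% called lower. Of 10 erythroid markers 5 were called higher and 1 lower, with a summed level of 2304 to 2309 in WT and 3753 to 3831 in the knockout. Of 8 B cell markers 5 were called higher and none lower, with summed levels of 1017 to 1053 and 1991 to 2158. Of 10 neutrophil markers 2 were called higher and 4 lower (27920 to 33252 and 42864 to 44944). Their sum was higher in the knockout though their median log2 fold change was -0.40, so the sum does not stand for most of them. Of 7 monocyte and macrophage markers 2 were called lower (1699 to 1995 and 1452 to 1666). Higher calls were made for 1 of 6 megakaryocyte markers (494 to 570 and 610 to 936) and for 3 of 6 mast cell, basophil and eosinophil markers (12836 to 15957 and 18318 to 20328). Of 6 tested markers of marrow stroma and endothelium 3 were higher and 1 lower (1459 to 1705 and 2091 to 2435). Of 8 T and NK cell markers limma called 0 (93.9 to 126 and 79.6 to 111), with 2 at an unadjusted p under 0.05, 0 called by edgeR and 0 by DESeq2. None of these markers was without reads in all libraries. The part of these markers in the results for Cdk4, Cdk6 and Ccnd3 was not tested, and in bulk samples fewer cells of a type and less RNA per cell cannot be told apart. Footprints follow both the amount of an mRNA and its translation, and mRNA levels were not analysed here.

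Reads could be shared with neighbours on the other strand, since whether counting used the strand is not given. Cdk4 overlaps 641 bases of Tspan31, which had 73.8 ± 12.6 normalized reads in WT against 78.9 ± 21.0 in the knockout, far below Cdk4. Ccnd3 overlaps 361 bases of Bysl, which had 57.3 ± 7.45 and 124 ± 42.8, and Cdk6 overlaps the noncoding Gm17590, which had 26.3 ± 13.3 and 22.4 ± 6.88. Ccne2 overlaps 5622 bases of Ints8, which at 185 ± 9.73 and 247 ± 29.1 had more reads than Ccne2. Ccnd1, Ccnd2, Cdk2 and Cdkn2c also overlap another gene in part, while Ccne1 and Cdkn1b overlap none.

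**Figure D4:**
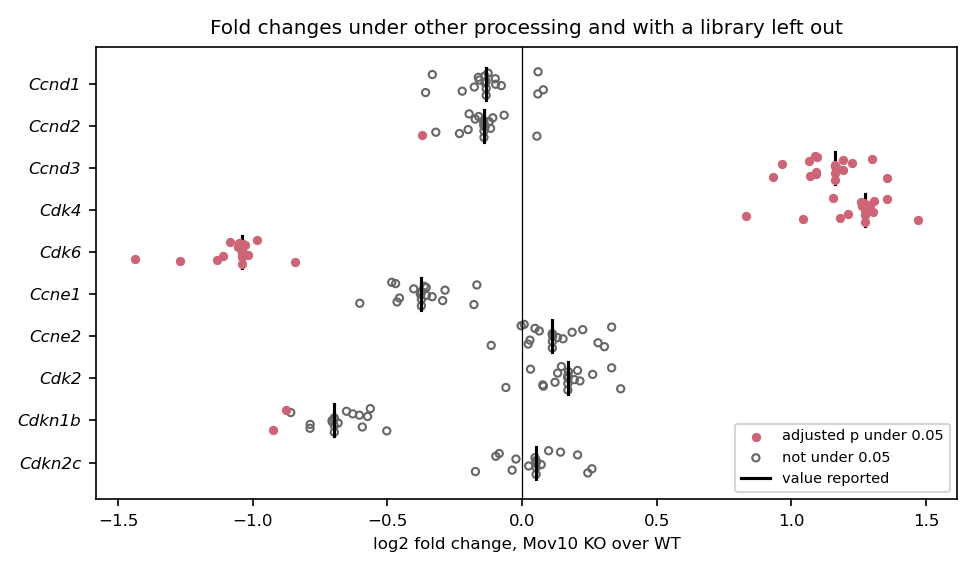
The log2 fold change of each gene, Mov10 KO over WT, under 19 alternatives (18 for Ccnd1 and Cdkn2c): 13 changes of processing and 6 fits that leave out 1 library, filled where the adjusted p was under 0.05, with a black line at the value reported. Cdk4 stays between 0.83 and 1.47, Ccnd3 between 0.93 and 1.36 and Cdk6 between -1.44 and -0.84, all filled.

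The other genes of the pathway were taken as 5 lists. The list of pocket proteins and E2F factors, through which the G1 kinases act, had 18 members, all tested, of which 3 rose and 5 fell. It also holds Tfdp1, Tfdp2, Lin9, Lin37, Lin52, Lin54 and Rbbp4, which are neither pocket proteins nor E2F factors. With 44.4% called, the list stands beside 21.2% of all genes and 30.7% of those with a mean of 30 to 1200 normalized reads. That range was set for the 10 G1 genes and does not hold all of this list. E2f5, with means of 11.0 in WT and 16.4 in the knockout, lies below it. Its median log2 fold change was -0.53, against -0.17 over all genes. Rbbp4, a histone-binding protein of Rb and chromatin complexes, rose from 691 ± 51.3 to 1938 ± 81.1 normalized reads (log2 fold change 1.49, limma adjusted p = 1.21e-05). Rb1, the retinoblastoma protein and substrate of Cdk4 and Cdk6, fell from 265 ± 12.5 to 120 ± 31.4 (log2 fold change -1.18, limma adjusted p = 0.00555). E2f8, a repressive E2F factor, fell from 371 ± 21.4 to 92.4 ± 40.1, and E2f6, another repressor of the family, from 110 ± 3.66 to 28.6 ± 7.35. The remaining calls, named because they complete the counts and after their values were seen, were Rbl2 and Tfdp1 among the lower and E2f2 and Lin37 among the higher genes. Of the higher genes only E2f2 is an E2F factor, and none is a pocket protein. Without WT replicates 1, 2 and 3 the calls numbered 4, 5 and 4, and in each of these fits 1 was higher. The split was 1 higher and 7 lower with library totals, 3 and 7 with TMM scaling, 3 and 6 with cyclic loess and 4 and 5 with upper-quartile scaling.

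E2F target genes, which act in DNA replication and nucleotide supply, had 20 members, of which 8 rose and 2 fell (50% called, against 21.2% of all genes and 30.7% of those with a mean of 30 to 1200 normalized reads), with a median log2 fold change of 0.33. Rrm1, the large subunit of ribonucleotide reductase, had 1128 ± 61.8 normalized reads in WT against 2281 ± 1.72 in the knockout (log2 fold change 1.02, limma adjusted p = 2.53e-05). Its mean over the libraries lies above the range of 30 to 1200, which does not hold all of this list. Mcm4, a subunit of the replicative helicase, rose 1.85-fold, Cdc6, which loads that helicase, 1.56-fold, and Pcna, the sliding clamp, 1.52-fold. Mcm7, another helicase subunit, fell 1.51-fold, and Tk1, a thymidine kinase, 2.04-fold. The balance of this list turned with the scaling, as library totals gave 4 higher and 6 lower, TMM scaling 4 and 5, cyclic loess 3 and 4 and upper-quartile scaling 9 and 1. Without WT replicates 1, 2 and 3 the calls were 4, 5 and 3.

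The inducers of G1 entry, 15 signalling and transcription factors, had 1 higher and 2 lower, with a median of -0.03. With 20% called, the list lay near the 21.2% of all genes. Stat5b, a transcription factor of cytokine signals, rose 1.83-fold, and the kinase Mapk3 fell 1.79-fold, with limma adjusted p of 0.0166 and 0.0466. Without WT replicate 1, 2 or 3 no gene of this list was called, and upper-quartile scaling gave 2 higher and 0 lower, library totals and TMM scaling 1 and 3, and cyclic loess 1 and 1. Myc, named after its values were seen, had 739 normalized reads in WT against 802 in the knockout (log2 fold change 0.11, limma adjusted p = 0.470).

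The list of CDK activation and cyclin turnover had 18 members, of which none rose and 2 fell (11.1% called, against 21.2% of all genes). Ambra1, which directs D-type cyclins to degradation, fell 1.58-fold, and Cdc37, a chaperone partner of Cdk4, 1.37-fold (limma adjusted p = 0.0198 and 0.0417). Without WT replicate 1, 2 or 3 neither was called, and without KO replicates 2 and 3 the list had 4 and 5 calls. Library totals gave 0 higher and 7 lower, TMM scaling 0 and 3, cyclic loess 0 and 2 and upper-quartile scaling 1 and 0. Its median log2 fold change was -0.37. Of the 6 other CDK inhibitors 3 had too few reads to be tested. Of the 3 tested 1, Cdkn1a (p21), was called lower (33.3%, against 21.2% of all genes). Cdkn1a had 9, 8 and 10 reads in the WT libraries and 0, 1 and 0 in the knockout libraries (limma adjusted p = 0.0391, and 0.165 by DESeq2), so that the knockout lay below the floor of 3 reads in each library. That call was lost without WT replicates 1, 2 and 3 and without KO replicates 1 and 3, with adjusted p from 0.0543 to 0.140, and over all alternatives that tested it the adjusted p ran from 0.0132 to 0.165. The median of this list, over 3 genes, was -0.77.

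**Figure D5:**
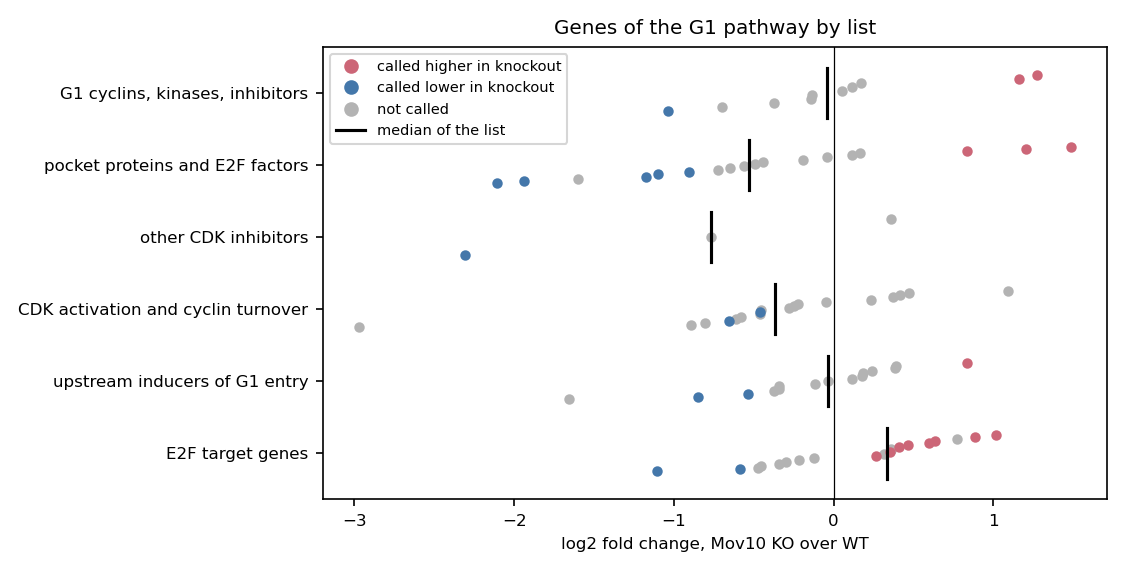
The log2 fold change, Mov10 KO over WT, of each tested gene of the 10 G1 genes and of the 5 pathway lists, coloured by the limma call, with a black line at the median of each list. Medians run from -0.77 for the other CDK inhibitors to 0.33 for the E2F target genes, and the G1 genes have calls on both sides of 0.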

How the data were processed

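Ribosome footprints of 24 to 36 nt from 6 libraries were analysed from 1 table of genes. The authors deposited signal values that are read counts divided by 1 size factor per library, as the values show: between 99.97% and 99.98% of the values above 0 in a library were whole multiples of its step, within 0.05 of a read. The 5 genes that were not, none of them among the genes followed here, were left out. The authors' deposited log2 fold changes, p-values and adjusted p-values come from a test that no source names, and the sources used here give no aligner, counting tool or annotation. The genome build is GRCm39, per the submitters' processing notes.

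With limma 3.58.1 (R 4.3.3), a model of genotype alone was fitted to log2(value + 1), with a variance trend, for the 17114 genes whose mean reached 1 normalized read. A gene was called where its adjusted p was under 0.05. Fold changes on that scale understate those of low genes. Alternatives used edgeR 4.0.16 (which called 3213 of 10891 genes) and DESeq2 1.42.0 on recovered reads, other scalings, filters, a pseudocount of 0.1 and each library left out. Shares were compared by exact permutation over 20 regroupings. Figures used matplotlib 3.10.9. All members, and of each other list up to 4 called genes with the smallest p and up to 2 of the opposite direction, are named, except 1 gene that is not reported here. Members, lists and tests were chosen with earlier results of these data known.

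The floor of 3 reads and the Wilson intervals take each read as independent, so they account for counting error alone. Reads copied from the same molecule are not allowed for. The limma intervals of log2 fold changes rest on the spread between libraries.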

Additional observations from a re-analysis of the deposited data

How the results depend on the processing

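Cdk4, Ccnd3 and Cdk6 kept their direction and their call in all 19 alternatives, with adjusted p of up to 0.0149, 0.0260 and 0.0192, each reached without a variance trend. The number of members called higher was 2 in every alternative. The number called lower was 3 with library totals (Ccnd2, Cdk6 and Cdkn1b) and 1 to 2 with a library left out, with 2 without KO replicate 2 (Cdk6 and Cdkn1b). Genes not called changed sign: Ccnd1 to 0.059 with upper-quartile scaling, 0.079 with cyclic loess and 0.059 without KO replicate 3, Ccnd2 to 0.055 with upper-quartile scaling, Ccne2 to -0.11 with library totals and -0.0034 without KO replicate 2, Cdk2 to -0.060 with library totals, and Cdkn2c to -0.17 with library totals, -0.037 with TMM scaling, -0.023 when thinned, -0.10 without WT replicate 2 and -0.08 without KO replicate 1. With each library left out, these ranged from -0.33 to 0.059 for Ccnd1, -0.0034 to 0.33 for Ccne2 and -0.10 to 0.21 for Cdkn2c. The cause was not tested. Deviations from the group means of same-numbered libraries correlated by 0.0119, 0.0128 and -0.00617, so that no effect shared by same-numbered libraries was seen. Whether the libraries were prepared in pairs cannot be told from this. The replicate block gave 3245 calls over all genes and kept 2 members higher and 1 lower, but 0 calls among the other CDK inhibitors.

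With a library left out, the calls ranged from 1239 to 4585 over all genes, 4 to 11 among pocket proteins and E2F factors, 0 to 1 among other CDK inhibitors, 0 to 5 in CDK activation and cyclin turnover, 0 to 4 among inducers of G1 entry and 3 to 12 among E2F targets. The other CDK inhibitors had 0 calls with upper-quartile scaling, cyclic loess, edgeR, DESeq2, a pseudocount of 0.1, no filter and a mean of at least 50. CDK activation and cyclin turnover had 1 call with upper-quartile scaling, 7 with library totals, 0 without a variance trend, 5 with limma-voom, 1 with no filter and 1 when thinned. The inducers had 1 call without a variance trend and 1 with no filter, and the E2F targets 2 without a variance trend. Dividing reads by gene length, an alternative chosen after seeing the data, moved the difference in the share of Cdk6 from -37.6 to -21.8 percentage points and that of Ccnd1 from -1.91 to -3.48. Division by protein length was not run. Precision is lowest for Ccnd1, Cdkn2c, Ccne2, Cdkn1b and Ccne1, whose 95% intervals span more than 1 on the log2 scale.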

Other observations

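The spread between replicate libraries was set against counting noise by abundance. For genes with 20 to 100 reads in a pair of libraries, the squared difference was 5.99 to 6.58 times counting noise in the knockout and 1.42 to 1.51 times in WT. For genes with 100 to 1000 reads it was 6.48 to 7.52 times and 1.53 to 1.96 times. Among the most read genes, with 1000 reads or more, it was 6.34 to 11.4 times in the knockout and 2.17 to 8.22 times in WT.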
